A study of Klebsormidium nitens with 6 samples.

Results

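In the filamentous alga Klebsormidium nitens, 157 well expressed genes had 2- to 4-fold less RNA after 2 hours with the oxylipin OPDA (12-oxo-phytodienoic acid) than in mock-treated algae. They were picked from the authors' normalized counts, that is, read counts divided by 1 scaling constant per library. A gene was taken when its mean over the 3 mock libraries was at least 1200 and its mean over the 3 OPDA libraries, after adding 1 to both means, was above 0.25 and at most 0.5 of the mock mean. The highest OPDA value also had to lie below the lowest mock value. Of 17152 genes in the normalized table, 4546 reached the mock minimum, and 157 of these (3.45%) met the whole rule. The last condition removed nothing, since all 157 genes within the ratio limits also had separate groups. Because the OPDA and mock values themselves chose the genes, their levels and fold changes are given as a description, with no test.

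The treated group was algae kept in liquid medium with 25 µM OPDA for 2 hours, with 3 libraries numbered 1, 2 and 4. The other group was mock algae in the same medium (Gamborg's B5 at 0.5 strength) for the same time, with 3 libraries numbered 1, 2 and 3. Both came from droplets of algal suspension grown on plates for a month, and the labels name no strain, genotype or separate culture for either group. P-values in this design therefore measure the spread between these libraries, which may be technical. Library totals lay between 23693021 and 24169072 counts. RNA was taken from whole algal discs, so fewer cells of a type and less RNA per cell cannot be told apart.

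OPDA is made in chloroplasts from a polyunsaturated fatty acid and, in vascular plants, is converted to jasmonate. It also carries a reactive carbonyl group that can bind to thiols of proteins and of glutathione, and in flowering plants such electrophiles change transcript levels without the jasmonate receptor COI1. Klebsormidium belongs to the streptophyte algae, the lineage from which land plants arose, and grows on soil and rock, where heat and drying are common. Transcript level after a short treatment reflects both synthesis and decay, which read counts do not separate.

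The gene table used here names no product for any of the 157 genes, so they are given by the identifiers of the files and no role is assigned to them. Of the 157 identifiers, 156 had a locus tag in assembly ASM70883v1, and 1, kfl00806_g3_v1.1, carried a gene number of another form and had none. None of the 157 identifiers was repeated in the count tables with a suffix, a form in which reads of a gene might be shared between rows. The tissue label could not be set against marker genes for the same reason.

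The lowered genes spanned a wide range of read counts. Their OPDA means ran from 351 to 34103 normalized counts with a median of 1045, against mock means from 1201 to 68515 with a median of 2627. Counts were not divided by transcript length, so this is an order of reads and not of molecules. In mock, 3 of the 157 were among the 100 genes with the most reads and 27 among the first 500. The genes with 1200 to 2400 normalized counts in mock numbered 2468, and 74 of them (3.00%) were among the lowered genes. The share was 45 of 1274 (3.53%) between 2400 and 4800, 24 of 494 (4.86%) between 4800 and 9600, and 14 of 310 (4.52%) at 9600 or more. The median fold of the lowered genes was 2.37, 2.39, 2.36 and 2.48 in these 4 classes. Both the fold and the mock mean were used to choose the genes, so nothing is read from these medians.

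**Figure D1:**
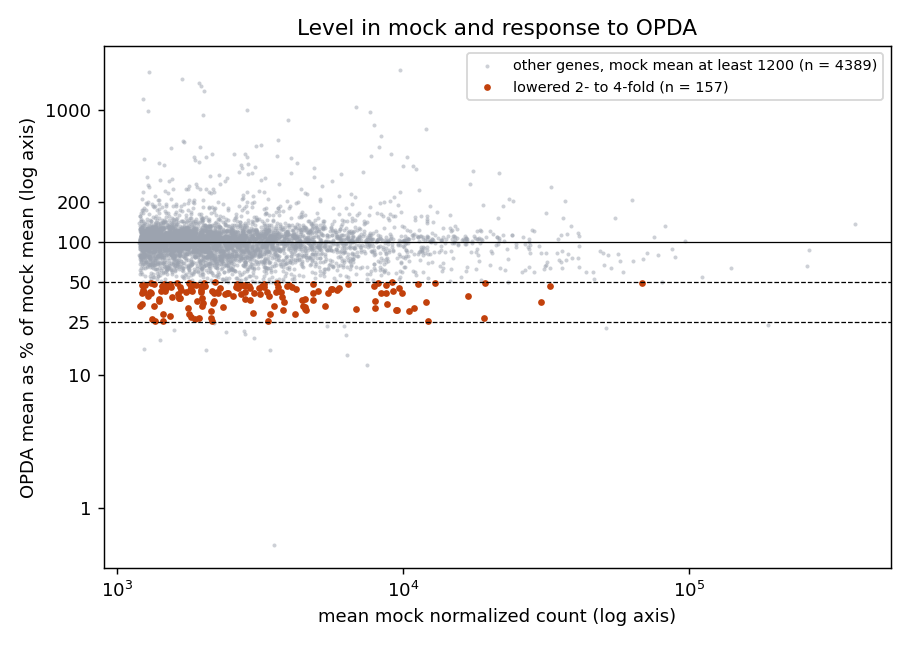
Each point is 1 gene with a mock mean of at least 1200 normalized counts, placed by its mock mean (horizontal, log axis) and by its OPDA mean as a percentage of the mock mean (vertical, log axis). The 157 lowered genes lie in the band between the dashed lines at 25 and 50%, at mock means from 1201 to 68515. The 4389 other genes, which reach higher mock means, lie mostly around the solid line at 100%.

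Together the 157 genes took 1.27, 1.21 and 1.18% of all raw counts in OPDA libraries 1, 2 and 4, against 3.29, 3.09 and 3.01% in mock libraries 1, 2 and 3. The means were 1.22% ± 0.0464 in OPDA and 3.13% ± 0.143 in mock (SD, n = 3 each). A few genes carried much of this: the first gene held 9.40% of the group's mock reads, the first 10 held 32.4% and the first 50 held 68.5%. Without that first gene the other 156 took 1.08% ± 0.0302 in OPDA and 2.84% ± 0.138 in mock (SD, n = 3 each).

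The gene with the most reads was kfl00009_0500_v1.1 (locus tag KFL_000090500), in 16th place among all genes in mock. It had 38669.8, 33676 and 29963 normalized counts in OPDA libraries 1, 2 and 4, against 69893, 71575 and 64078 in mock libraries 1, 2 and 3. The fall to 49.8% of the mock mean put it close to the 2-fold limit. Its groups were 1.66-fold apart at their nearest values, against a median of 2.03 over the lowered genes. The next, kfl00098_0280_v1.1, had 16039, 14187 and 15822 normalized counts in OPDA libraries 1, 2 and 4, against 36588, 31711 and 29663 in mock libraries 1, 2 and 3. At 47.0% of mock it was also near the limit, and its mock library 1 stood above the other mock libraries. A larger difference was seen for kfl00221_0110_v1.1, with 11592, 10187 and 10845 normalized counts in OPDA libraries 1, 2 and 4, against 31482, 30512 and 29487 in mock libraries 1, 2 and 3. Libraries of a group lay close together for this gene, and OPDA held 35.7% of the mock mean (log2 fold change -1.49 ± 0.08, SE).

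Of the next genes by mock reads, kfl00254_0210_v1.1 and kfl00148_0250_v1.1 (KFL_001480250) fell nearly 4-fold. For kfl00254_0210_v1.1 the values were 5691, 3951 and 5873 normalized counts in OPDA libraries 1, 2 and 4, against 21487, 19729 and 16632 in mock libraries 1, 2 and 3. OPDA library 2 was the lowest of these, and the mean was 26.8% of mock. For kfl00148_0250_v1.1 they were 3443, 2929 and 3059 normalized counts in OPDA libraries 1, 2 and 4, against 12890.1, 12630.3 and 11256 in mock libraries 1, 2 and 3. This was the only gene among the first 10 by reads that was also among the 5 lowest ratios, at 25.7% of mock, and the groups were 3.27-fold apart at their nearest values.

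The other 5 of the first 10 held between 35.4% and 49.7% of mock. The gene kfl00017_0180_v1.1 averaged 9616 ± 809 in OPDA and 19428 ± 1671 in mock, and kfl00014_0270_v1.1 averaged 6455 ± 398 in OPDA and 12981 ± 1422 in mock (normalized counts, SD, n = 3 each). Both sat next to the 2-fold limit. By contrast, kfl00048_0460_v1.1 averaged 6645 ± 1001 in OPDA and 16933 ± 1621 in mock, and kfl00183_0050_v1.1 averaged 4272 ± 265 in OPDA and 12075 ± 262 in mock (SD, n = 3 each). The last of the 10 by reads, kfl00503_0050_v1.1, was the least even in OPDA. It had 5261, 7446 and 3791 normalized counts in OPDA libraries 1, 2 and 4, against 10930.3, 10437 and 12450.5 in mock libraries 1, 2 and 3, so that OPDA library 2 held 1.96 times as many reads as OPDA library 4.

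**Figure D2:**
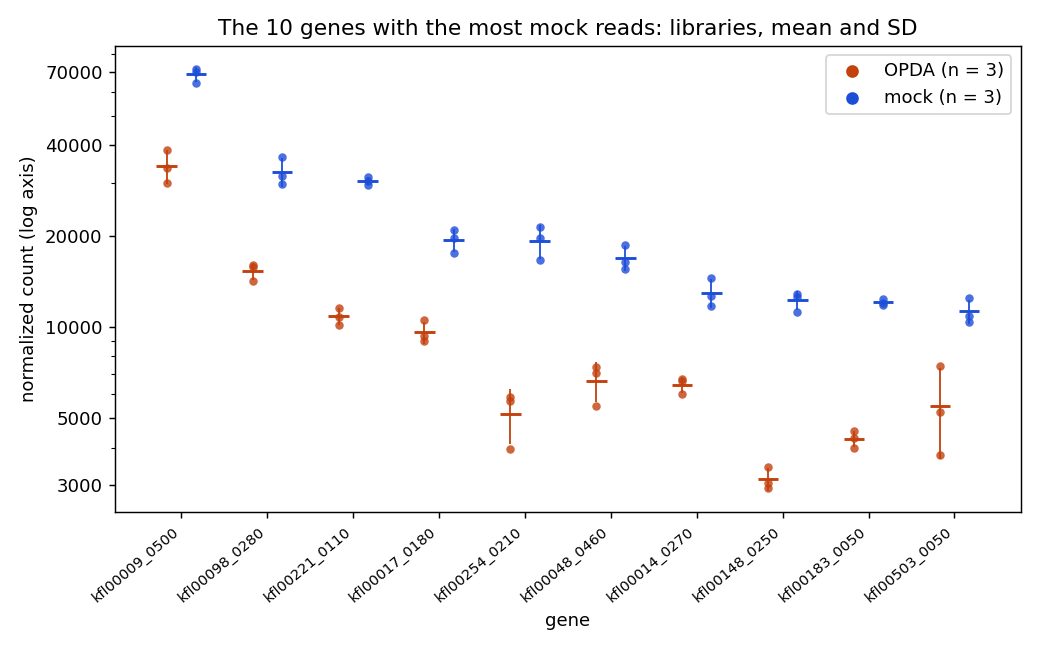
Normalized counts (log axis) of the 10 lowered genes with the most mock reads, with OPDA libraries on the left and mock libraries on the right for each gene; points are libraries, bars the mean and lines 1 SD (n = 3 each). All OPDA values lie below all mock values of the same gene, and kfl00503_0050 shows the widest spread between OPDA libraries.

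Most of the 157 genes lay nearer to the 2-fold than to the 4-fold limit. The OPDA mean was 25.4 to 49.995% of the mock mean, with a median of 42.0%, a fall of 2.38-fold. The fall was 2- to 2.5-fold in 94 genes (59.9%), 2.5- to 3-fold in 29, 3- to 3.5-fold in 22 and 3.5- to 4-fold in 12 (7.64%). Between the nearest values of the 2 groups, the lowest mock over the highest OPDA value had a median of 2.03 and ran from 1.35 to 3.48. This gap was at least 2-fold in 83 genes and at least 3-fold in 7, and it was under 1.5-fold in 4. For comparison, 1524 of the 4546 genes with the same mock minimum (33.5%) had all OPDA values below all mock values, by any amount.

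At the strong end, kfl00050_0280_v1.1 had 372, 377 and 353 normalized counts in OPDA libraries 1, 2 and 4, against 1579, 1452 and 1311 in mock libraries 1, 2 and 3. This was 25.4% of mock, and the gap of 3.48-fold between the nearest values was the widest of the 157. The gene kfl01055_0020_v1.1 had 506, 670.1 and 467 normalized counts in OPDA libraries 1, 2 and 4, against 2242, 2232 and 1994 in mock libraries 1, 2 and 3, with OPDA library 2 the highest of its group. The third, kfl00148_0250_v1.1, is described above. After it, kfl00134_0100_v1.1 held 25.7% and kfl00099_0230_v1.1 25.8% of mock, and in both the mock library 1 value was well above the other mock libraries. Just outside the 4-fold limit stood kfl00293_0060_v1.1 at 24.7% and kfl00030_0090_v1.1 at 23.99% of mock.

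At the weak end, kfl00806_0030_v1.1 lay at the limit, with 4809.6, 4678 and 4249 normalized counts in OPDA libraries 1, 2 and 4, against 9304, 8655 and 9521 in mock libraries 1, 2 and 3. The 3 OPDA values differed little among themselves, and so did the 3 mock values. The most even gene there was kfl00130_0160_v1.1, with 905, 890.3 and 869 normalized counts in OPDA libraries 1, 2 and 4, against 1843, 1778 and 1734 in mock libraries 1, 2 and 3. Also at this end was kfl00071_0220_v1.1, which held 49.96% of mock. The 2 genes nearest outside the limit, kfl00008_0060_v1.1 at 50.08% and kfl00013_0180_v1.1 at 50.1%, cannot be told from those inside it given this spread. By mock level, the genes just inside were kfl00171_0090_v1.1, with 396 ± 19.1 in OPDA and 1201 ± 64.3 in mock, and kfl00019_0480_v1.1, with 421 ± 66.6 in OPDA and 1221 ± 281 in mock (SD, n = 3 each). Just under the minimum were kfl00504_0020_v1.1, with 561 ± 21.5 in OPDA and 1189 ± 99.4 in mock, and kfl00002_0560_v1.1, with 448 ± 7.24 in OPDA and 1179 ± 59.4 in mock (SD, n = 3 each).

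**Figure D3:**
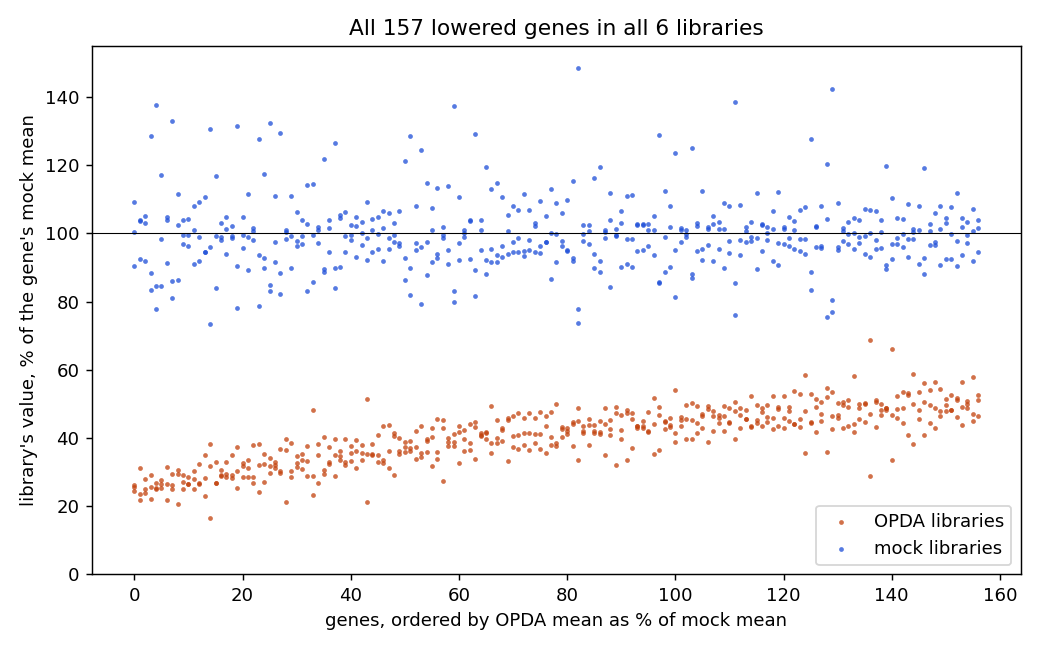
All 157 lowered genes, ordered by the OPDA mean as a percentage of the mock mean, with every library's value as a percentage of the gene's own mock mean (vertical axis from 0). OPDA values climb along the order as the choice of genes dictates, the groups of each gene stay apart, and single mock values reach far above the line at 100% in several genes.

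In a fit of the raw counts of all 11752 tested genes (edgeR's quasi-likelihood test), the log2 fold changes of the 157 genes, OPDA over mock, ran from -1.98 to -0.9998 with a median of -1.25. Their standard errors ran from 0.059 to 0.409, with a median of 0.0898. All 157 had an adjusted p under 0.05, where 3233 of the 11752 tested genes (27.5%) passed in the lower direction and 3115 in the higher. With total counts as library sizes, 4027 passed lower and 2232 higher, and the median over all tested genes was -0.08 on the log2 scale. The same contrast chose the genes, so nothing is read from that count. The end at -0.9998 was kfl00806_0030_v1.1, and the other 156 genes had fitted changes of -1 or below.

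Libraries of the same group differed more in the lowered genes than in the other 4389 genes with the same mock minimum. The SD of log2 normalized counts had a median of 0.139 between OPDA libraries, against 0.0792 in the other genes. Between mock libraries it was 0.107, against 0.0704 in the other genes. Both SDs were under 0.1 in 27 of the 157 genes (17.2%) and in 2200 of the 4389 others (50.1%). The difference was similar at matched levels: among genes with OPDA means between 698 and 1845 normalized counts, the median OPDA SD was 0.136 in 79 lowered and 0.0790 in 1587 other genes. The genes raised 2- to 4-fold, described below, had a median SD of 0.0987 in OPDA and 0.110 in mock. A single high mock or low OPDA value favours entry into the lowered genes. How far the choice of genes gives their larger spread was not tested. Genes of a library are not independent, so these are descriptions and no test was made.

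The mock libraries showed an order in the lowered genes. Mock library 1 was the highest of the 3 mock libraries in 105 of the 157 genes (66.9%), and in 1709 of the 4389 other genes (38.9%). Mock library 3 was the lowest in 83 of the 157 (52.9%), and in 1592 of the others (36.3%). In the median lowered gene, mock library 1 lay 0.07 above the group's mean log2 value, mock library 2 lay at -0.03 and mock library 3 at -0.07. Without mock library 1, the median mock SD was 0.0617 in the lowered genes and 0.0474 in the others. These medians were 0.112 and 0.0659 without mock library 2, and 0.0888 and 0.0603 without mock library 3. Each such SD rests on 2 libraries and tends to be lower than an SD of 3. These medians are therefore compared only with each other. The mock mean was part of the rule, and how far the choice of genes alone gives such an order was not tested.

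The OPDA libraries showed a weaker order. OPDA library 1 was the highest of its group in 72 of the 157 genes (45.9%), against 1605 of the others (36.6%), and OPDA library 4 was the lowest in 73 (46.5%), against 1691 of the others (38.5%). Set against the mean of the mock libraries, the median lowered gene had a log2 ratio of -1.20 in OPDA library 1, -1.27 in library 2 and -1.30 in library 4. The direction was the same in all 3, as the rule demands, and library 1 showed the smallest difference. The median OPDA SD of the lowered genes was 0.0967 without OPDA library 1, 0.125 without library 2 and 0.106 without library 4. In the other genes it was 0.0635, 0.0639 and 0.0659, and each such SD rests on 2 libraries. The OPDA mean was also part of the rule, and how far the choice of genes gives this order was not tested.

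**Figure D4:**
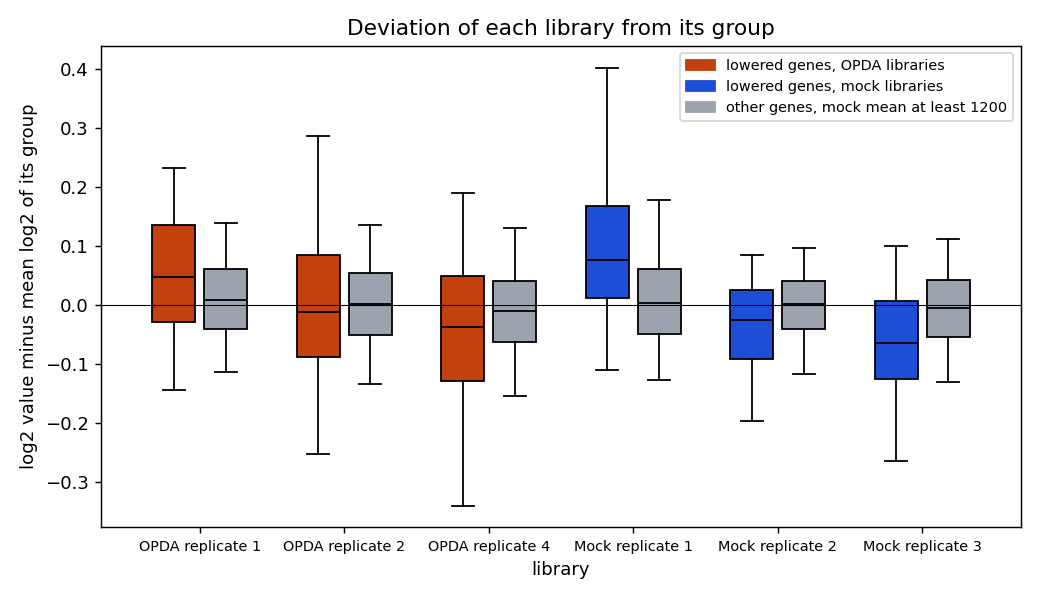
Deviation of each library from the mean log2 normalized count of its own group, in log2 units, for the 157 lowered genes (coloured boxes) and the 4389 other genes with the same mock minimum (grey boxes). Boxes show the median and quartiles and whiskers the 5th and 95th percentiles; the box of mock replicate 1 lies highest, with a median of 0.07, and the coloured boxes are taller than the grey ones in all 6 libraries.

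In 11 of the 157 genes (7.01%) mock library 1 was at least 1.5 times the mean of the other mock libraries, as it was in 28 of the 4389 others (0.638%). A single high mock value raises the mock mean that the rule used, and its part in this difference was not tested. These 11 include the 5 genes with the largest mock SD. The most uneven was kfl00107_0270_v1.1, with 1504, 1637 and 1119 normalized counts in OPDA libraries 1, 2 and 4, against 4973, 2611 and 2469.5 in mock libraries 1, 2 and 3. Leaving out mock library 1 raised its OPDA level to 55.9% of mock, outside the 2-fold limit. A similar pattern held for kfl01280_0010_v1.1, with 585, 673 and 538 normalized counts in OPDA libraries 1, 2 and 4, against 1793, 1014 and 970.3 in mock libraries 1, 2 and 3, and here OPDA came to 60.4% of mock without that library. For kfl00124_0270_v1.1 the values were 1759, 1853 and 1458 normalized counts in OPDA libraries 1, 2 and 4, against 5086, 3139 and 2796 in mock libraries 1, 2 and 3, which gave 57.0% without it.

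The gene kfl00170_0220_v1.1, also of these 11 and named after its values were seen, came to 51.4% without mock library 1, and the other 7 stayed below 50%. The gene kfl00099_0230_v1.1 had 367, 342 and 344 normalized counts in OPDA libraries 1, 2 and 4, against 1877, 1060.3 and 1155 in mock libraries 1, 2 and 3, and its OPDA level was 31.8% of mock without mock library 1. With 961, 993 and 1054 normalized counts in OPDA libraries 1, 2 and 4, against 3511, 2125 and 2039.7 in mock libraries 1, 2 and 3, kfl00150_0210_v1.1 came to 48.2%. Over all 11 genes the OPDA level without mock library 1 ran from 31.8 to 60.4% of mock with a median of 47.5%, and it was above 50% in 4 of them. With all libraries their median was 39.2%.

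A smaller number of genes had a low value in OPDA library 4. In 5 of the 157 genes (3.18%) it was at most the mean of the other OPDA libraries divided by 1.5, as it was in 5 of the 4389 others (0.114%). A single low OPDA value lowers the OPDA mean that the rule used. How far the choice of genes gives this difference was not tested. All 5 are named here, after their values were seen where no other rule names them. The gene kfl00426_0080_v1.1 had 1096, 1314 and 564 normalized counts in OPDA libraries 1, 2 and 4, against 2524, 3299.7 and 4496 in mock libraries 1, 2 and 3, so its mock libraries were uneven too, with library 3 the highest. Both kfl00006_0520_v1.1 and kfl00056_0020_v1.1 were uneven in OPDA only. The values of kfl00006_0520_v1.1 were 493, 719 and 295 normalized counts in OPDA libraries 1, 2 and 4, against 1529, 1381 and 1289 in mock libraries 1, 2 and 3. Those of kfl00056_0020_v1.1 were 842, 1235 and 520.1 normalized counts in OPDA libraries 1, 2 and 4, against 1919, 1797 and 1670.4 in mock libraries 1, 2 and 3. In each, OPDA library 2 was the highest and library 4 the lowest, as in kfl00078_0350_v1.1 and in kfl00503_0050_v1.1 above. Without OPDA library 4 the OPDA level of kfl00056_0020_v1.1 was 57.8% of mock and that of kfl00503_0050_v1.1 was 56.4%, while the other 3 stayed between 35.1 and 43.3%. The opposite case was 1 gene, kfl00049_0070_v1.1, whose OPDA library 4 value was 1.85 times the mean of the other OPDA libraries.

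Of the 157 genes, 110 (70.1%) met the whole rule whichever of the 6 libraries was left out, and 47 left it in at least 1 case. Leaving out mock library 1 removed the most, 24 genes, of which 20 had a ratio over 0.5 and 4 fell under the mock minimum. Without OPDA library 4, 17 genes left, all with a ratio over 0.5. Leaving out any of the other 4 libraries removed between 6 and 13 genes. No gene could lose its direction in these cases, since the rule kept all OPDA values of a gene below all its mock values. The highest OPDA level that any of the 157 reached in these cases was 60.4% of mock, without mock library 1.

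The same fold limits were also turned round, with the minimum of 1200 normalized counts still set on the mock mean. This gave 92 genes with a 2- to 4-fold higher OPDA mean without overlap. Genes raised from under that minimum are left out, so the numbers and shares of reads of the 2 classes depend on it. Among genes well expressed in mock, the lowered genes were the larger class by number, 157 against 92. Of the other genes with this mock minimum, 18 had an OPDA mean at 25% or less of mock, and 38 had one of at least 4 times mock. By reads the order was the other way in OPDA: the 92 raised genes took 5.66% ± 0.194 of counts in OPDA and 2.31% ± 0.0821 in mock (SD, n = 3 each). Lowered genes were less even than raised genes in OPDA, with a median OPDA SD of 0.139 against 0.0987 on the log2 scale. The 2 classes differ in level there, with median OPDA means of 1045 and 7515 normalized counts, and were not compared at matched levels. The median mock SDs of the lowered and raised genes were close, 0.107 and 0.110. Mock library 1 was the highest of its group in 43 of the 92 raised genes (46.7%), and OPDA library 4 was the highest of its group in 49 (53.3%) of them. None of the 92 had a mock library 1 value at least 1.5 times the mean of the other mock libraries. A single high mock value works for a gene under the lowered rule and against it under the raised rule, so nothing is read from this. The OPDA and mock means were part of both rules, and these differences between the 2 classes were not tested.

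The 157 genes lay on 132 scaffolds. How many scaffolds or neighbouring pairs the same number of other well expressed genes would give was not worked out. On 110 scaffolds there was 1 such gene, on 19 there were 2, and on 3 scaffolds there were 3. Following the gene order of assembly ASM70883v1, 7 pairs of lowered genes were direct neighbours, which makes 14 genes. The pair kfl00071_0220_v1.1 and kfl00071_0230_v1.1 was at 49.96 and 47.9% of mock, and the pair kfl00101_0140_v1.1 and kfl00101_0150_v1.1 at 31.9% and 45.7%. In this second pair only kfl00101_0140_v1.1 had a high value in mock library 1, 2339.9 normalized counts against 1499 and 1468 in mock libraries 2 and 3. The strand setting of the counting is not given in the sources used here, so reads of overlapping neighbours cannot be kept apart with certainty.

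Some pairs were alike in level as well as in ratio. The gene kfl00172_0120_v1.1 had 1419, 1460.0 and 1512 normalized counts in OPDA libraries 1, 2 and 4, against 3442, 3589 and 4299 in mock libraries 1, 2 and 3. Its neighbour kfl00172_0125_v1.1 had 1606, 1779.6 and 1573 normalized counts in OPDA libraries 1, 2 and 4, against 4295, 4332 and 4743 in mock libraries 1, 2 and 3. Mock library 3 was the highest for both. A pair named after its values were seen, kfl00252_0020_v1.1 and kfl00252_0030_v1.1, averaged 2932 ± 564 and 2997 ± 234 in OPDA and 9433 ± 170.2 and 8775 ± 423 in mock (normalized counts, SD, n = 3 each). The 2 other well expressed genes of that scaffold, kfl00252_0060_v1.1 and kfl00252_0070_v1.1, were at 68.8 and 119% of mock. On scaffold kfl00806, with 3 well expressed genes, kfl00806_0030_v1.1 and kfl00806_g3_v1.1 held 49.99 and 49.4% of mock, and kfl00806_0010_v1.1 held 124%.

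Beside the lowered genes lay 228 other tested genes as direct neighbours. Of these, 87 (38.2%) were lower and 55 (24.1%) higher in OPDA at an adjusted p under 0.05 (edgeR's quasi-likelihood test), and 86 did not pass. Among all 11595 tested genes outside the 157, 26.5% passed in the lower and 26.9% in the higher direction. With total counts as library sizes in place of TMM, a scaling added after the data had been seen, 103 of the neighbours (45.2%) passed lower and 41 higher, against 3870 (33.4%) lower and 2232 higher of the 11595. The median log2 fold change of the 228 neighbours was -0.07, against 0.01 for the 11595. By side it was -0.11 for the 107 genes that followed and -0.01 for the 121 that preceded a lowered gene in the order of the assembly. At 2 genes away the medians were -0.0146 after and 0.00276 before, and at 3 genes away 0.0422 after and -0.00315 before. No test of this difference was made, since neighbouring genes share libraries and may share reads.

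**Figure D5:**
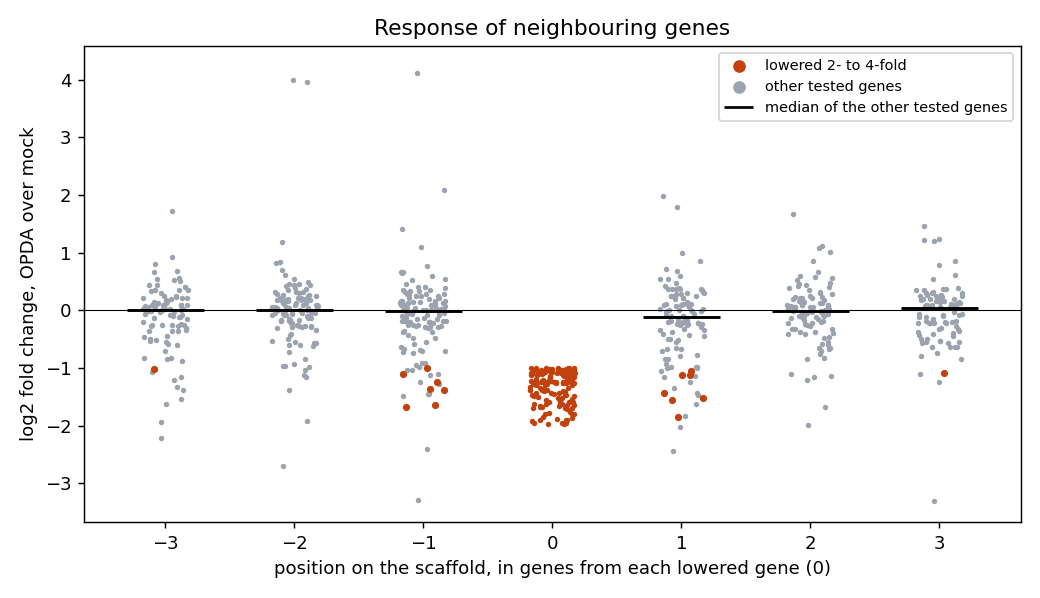
Log2 fold change (OPDA over mock) of tested genes up to 3 places away from each of the lowered genes on its scaffold, with orange for the 157 lowered genes, grey for other tested genes and a bar for the median of the grey points; points are spread sideways at random. Medians of the grey points stay between -0.11 and 0.04, and single neighbours reach far up and down.

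Direct neighbours of strongly lowered genes could go the opposite way, and the following were named after their values were seen. The gene kfl00050_0290_v1.1, next to the most lowered gene kfl00050_0280_v1.1, had 17826, 17751 and 15294 normalized counts in OPDA libraries 1, 2 and 4, against 4721, 4011 and 4112 in mock libraries 1, 2 and 3. It rose by 1.99 ± 0.09 on the log2 scale (SE; edgeR adjusted p = 2.23e-09), while the lowered gene beside it was at -1.98. The gene kfl00729_0010_v1.1, next to kfl00729_0020_v1.1, had 5269.9, 5070.5 and 5562 normalized counts in OPDA libraries 1, 2 and 4, against 1324, 1158 and 1257 in mock libraries 1, 2 and 3, a rise of 2.09 ± 0.07 on the log2 scale (SE; edgeR adjusted p = 2.15e-10) against -1.67 for its lowered neighbour. Beside kfl00148_0250_v1.1, the gene kfl00148_0260_v1.1 averaged 17248 ± 799 in OPDA and 8619 ± 332 in mock (SD, n = 3 each; log2 fold change 1.001 ± 0.07, SE; edgeR adjusted p = 1.74e-07). The 3 OPDA libraries were above the 3 mock libraries for each of these 3 neighbours. Calls of 2-fold or more numbered 23 in the lower (10.1%) and 7 in the higher direction (3.07%) among the 228 neighbours, against 455 lower (3.92%) and 413 higher (3.56%) among the 11595. With a mock mean of at least 1200, only 2 of 94 neighbours had a fitted fall of at least 2-fold, and 18 of all 4389 such genes. The lowered genes themselves are left out of these counts, and the difference was not tested.

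Neighbours that fell were also named after their values were seen. The one that fell most, kfl00020_0090_v1.1, had a log2 fold change of -3.29 ± 0.56 (SE). It had few reads and uneven mock values, with 216, 70.9 and 90.4 normalized counts in mock libraries 1, 2 and 3. Of the others, kfl00943_0030_v1.1, beside kfl00943_0020_v1.1, had 256, 256 and 275 normalized counts in OPDA libraries 1, 2 and 4, against 1366, 1563 and 1330.0 in mock libraries 1, 2 and 3 (log2 fold change -2.43 ± 0.08, SE; edgeR adjusted p = 1.83e-10). It is well expressed and missed the 157 only because it fell more than 4-fold. The gene kfl00076_0260_v1.1, beside kfl00076_0270_v1.1, had 65.5, 55.3 and 64.8 normalized counts in OPDA libraries 1, 2 and 4, against 354, 300.1 and 328 in mock libraries 1, 2 and 3 (log2 fold change -2.40 ± 0.13, SE; edgeR adjusted p = 1.30e-08). Its mock level lay under the minimum of 1200 normalized counts.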

How the data were processed

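RNA of whole algae was DNase-treated and sequenced as Illumina libraries, per the labels' protocols. The authors deposited raw read counts per gene for each library (17153 identifiers) and a table of normalized signal, the counts divided by 1 constant per library, between 0.962 and 1.04. Every value times its constant was whole within 1e-06, and 1 gene, kfl00001_0010_v1.1, had no row in that table. The submitters' processing notes list DESeq2, HISAT2, HTSeq and Trim Galore, without versions. Genome build and counting mode: not given in the sources used here.

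The 157 genes were chosen on the normalized table. Fold changes and standard errors (fold change over the square root of F) came from edgeR 4.0.16 (limma 3.58.1, R 4.3.3) on raw counts of all 6 libraries, with filterByExpr (minimum count 10, 11752 genes), TMM factors, no covariate, robust estimation and p-values adjusted by Benjamini-Hochberg over all tested genes. The fit was checked on simulated counts. Levels, spreads and neighbours were computed with Python 3.11.15, pandas 2.3.3 and numpy 2.4.6. Alternatives were other scalings, filters, DESeq2 1.42.0, a replicate block and each library left out. Members, lists and rules were chosen with earlier results of these data known. Genes named were the 10 with the most mock reads, 5 at each end of the ratio, 5 with the largest mock SD, those nearest each limit and up to 6 in adjacent pairs. Groups by similar protein or promoter, and lists by product, were not made because no sequence or product was used here. The SDs between libraries hold counting error as well.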

Additional observations from a re-analysis of the deposited data

How the results depend on the processing

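Of 65 values recomputed, 61 kept their direction and stayed within 1.5 times (counts) or 1 SD between libraries (other values), and 4 did not. A mock minimum of 600 gave 263 genes and one of 2400 gave 83 in place of 157, by construction. With total-count scaling the median log2 fold change of the 157 genes was -1.33 in place of -1.25, and 193 genes met the rule, 152 of them among the 157. The median mock SD on the log2 scale was 0.0617 in place of 0.107 without mock replicate 1, an alternative added after the data had been seen. Also added then, mock replicate 1 was the highest mock library in 94 genes with total-count scaling and in 102 with TMM scaling, against 105. Leaving out 1 library gave 141 to 168 genes by the rule and a median log2 fold change of -1.29 to -1.21. Then 150 to 154 of the 157 passed the edgeR threshold, beside 2885 to 3078 genes lower among the 11793 to 11814 tested. DESeq2 called all 157 lower, beside 3052 of the 12633 genes it tested. The same contrast chose the 157 genes, so nothing is read from how many of them passed. Both groups have a library numbered 1 and one numbered 2, but no label ties the numbers to a shared culture. Across genes, the deviations of libraries with the same number had correlations of 0.0778 and -0.0634, against -0.0981 to 0.0773 for the other pairs. With the number as a block (replicate block), 155 of the 157 were called lower, beside 2659 of the 11752 tested genes. The median of the 157 was -1.27 in that fit. That fit rests on replicates 1 and 2 of each group. No value reversed. Depth was not varied.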
